A study of Homo sapiens with 6 samples.

Results

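The genes described here are 10 brakes of the cell cycle: the inhibitors of cyclin-dependent kinases (CDKN1A, CDKN1B, CDKN1C, CDKN2A, CDKN2B, CDKN2C and CDKN2D) and the pocket proteins RB1, RBL1 and RBL2. They were read in A549, a line of human non-small cell lung cancer cells, and every probe set that the platform annotation gives to 1 of these genes alone was kept apart. This gave 22 of the 54675 probe sets on the array, for 9 of the 10 genes; CDKN2C was not analysed here. Of the 22, 12 probe sets of 8 genes were bright enough to be tested, against 27279 in all.

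The cells came from 3 stable lines made with a lentiviral vector, each with a tetracycline-inducible short hairpin RNA. The hairpin was a non-targeting control (shNTC) or 1 of 2 sequences against CNOT3 (shCNOT3-1 and shCNOT3-2). Each line was grown without doxycycline (DOX) or with DOX at 1 ug/ml for 72 hours, and 1 array was run per line and state, so the 6 groups of line and state had 1 array each. The comparison asks what loss of CNOT3, a subunit of the CCR4-NOT complex that removes poly(A) tails from mRNA, does to mRNA levels. The 2 hairpins served as the replicates of knockdown (n = 2), with the DOX change of shNTC beside them. The labels name no repeat cultures, and the p-values therefore cover no more than the spread among these 6 arrays.

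Cyclin-dependent kinases drive a cell from growth into DNA replication by phosphorylating the pocket proteins, which otherwise hold E2F factors in check. The inhibitors of the CIP/KIP family (CDKN1A, CDKN1B and CDKN1C, the proteins p21, p27 and p57) bind kinases together with their cyclins, and those of the INK4 family (CDKN2A, CDKN2B, CDKN2C and CDKN2D) bind CDK4 and CDK6. RB1 mainly holds the activating E2F factors, and RBL1 (p107) and RBL2 (p130) join E2F4 or E2F5 in repressor complexes such as DREAM.

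The start regions of CDKN1A, CDKN2D and RBL1 are shown because their probe sets had the lowest unadjusted p in the higher direction (CDKN1A) and the 2 lowest in the lower direction (CDKN2D and RBL1). The 120 bases before each annotated start were taken from RefSeq on GRCh38.p14, 5′ to 3′ on the gene's own strand: chr6:36678594-36678713 on the plus strand for CDKN1A, chr19:10568980-10569099 on the minus strand for CDKN2D and chr20:37095998-37096117 on the minus strand for RBL1. Capitals mark GGGCGG, the core of the GC box, or an E2F site (TTTGGCGC, TTTCGCGC, TTTCCCGC or TTTGCCGC), each searched on both strands.
CDKN1A: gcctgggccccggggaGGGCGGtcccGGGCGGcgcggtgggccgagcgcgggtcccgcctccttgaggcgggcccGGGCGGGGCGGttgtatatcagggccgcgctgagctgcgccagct
CDKN2D: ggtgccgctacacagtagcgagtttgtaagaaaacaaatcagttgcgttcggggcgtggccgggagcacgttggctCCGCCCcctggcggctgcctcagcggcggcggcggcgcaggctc
RBL1: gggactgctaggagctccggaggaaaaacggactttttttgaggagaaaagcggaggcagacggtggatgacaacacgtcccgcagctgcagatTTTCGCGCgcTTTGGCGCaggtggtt
The CDKN1A window held 4 copies of GGGCGG, of which the last pair overlapped, and 80.8% of its bases were G or C. The CDKN2D window held 1 copy on the opposite strand. The RBL1 window held 2 E2F sites, beginning 26 and 16 bases before the start, and no copy of GGGCGG. Over 35116 RefSeq start regions, windows of the same length held GGGCGG in 34.0% and an E2F site in 1.40%. TTTGAA, the letters of the cell cycle element CHR, was in none of the windows of these genes and in 5.70% of all. RefSeq start regions were matched by symbol for 9 of the 10 genes, and the matches describe letters, not sites in use.

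The arrays were alike in scale, and the cells read as epithelial. The mean intensity after trimming 2% at each end was 500.1 on every array, and arrays correlated with each other at 0.952 to 0.979 on the log2 scale across probe sets. All 5 epithelial markers were bright (summed intensity 83291 to 95299), as were 3 of 3 genes known to be high in A549 (100172 to 121060). Neither leukocyte marker was bright, and 1 of 3 endothelial markers (PECAM1) and 1 of 3 fibroblast markers (COL1A1) were. The summed fibroblast markers, each gene by its brightest probe set, read 495 to 614 in the knockdown arrays and 418 to 495 in the others. Most of this sum came from COL1A1 217430_x_at, at 349.9 to 552.7 over the arrays. The other tested COL1A1 probe set, 1556499_s_at, went the other way. It read at most 54.4 in the knockdown arrays and at least 102.7 in the others. The part of fibroblast signal in the values below was not tested. The ACTB 3′ to 5′ ratio, a sign of RNA quality, was 1.33 to 1.58. CNOT3, the target, read 227 off DOX and 81.9 on DOX in the shCNOT3-1 line, then 228 and 46.9 in the shCNOT3-2 line, and 178 and 166 in shNTC (203239_s_at). Its adjusted p was 0.0888 in limma, with a log2 difference of -1.86 (SE 0.34), so the hairpins' own target did not pass the threshold of 0.05 either. A dimmer CNOT3 probe set (229143_at) was also lower with DOX in shNTC, by -1.43 against -2.13 and -2.22 in the shCNOT3 lines.

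CDKN1A, the p21 inhibitor and a classic target of p53, was higher on DOX with both CNOT3 hairpins and not with shNTC. Its probe set 202284_s_at read 969 off DOX and 2382 on DOX in the shCNOT3-1 line, then 1111 and 2202 in the shCNOT3-2 line. In shNTC it read 758 and 709. Both knockdown arrays lay above all 4 others, the lower of them 1.98-fold above the highest of the rest. The DOX fold was 2.46 in shCNOT3-1, 1.98 in shCNOT3-2 and 0.936 in shNTC. On the log2 scale the hairpins averaged 1.14 ± 0.22 (SD, n = 2), against -0.10 in shNTC. The limma fit with each line as a block gave an SE of 0.20 and an unadjusted p of 0.000245, which did not pass after adjustment over all tested probe sets (adjusted p = 0.0827). Without the line as a block the log2 difference was 1.39 and the adjusted p 0.0179, a value that also takes in differences between the lines without DOX. The difference from shNTC itself was 1.24 (SE 0.38), with an adjusted p of 0.474 in limma. The 3 lines without DOX spanned 1.47-fold, less than the mean DOX change of the hairpins.

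CDKN1B, the p27 inhibitor that slows entry into S phase, had the highest mean intensity of these probe sets and hardly differed with DOX in the hairpin lines. Its probe set 209112_at read 2284 off DOX and 2396 on DOX in the shCNOT3-1 line, then 2580 and 2747 in the shCNOT3-2 line. In shNTC it read 1985 and 2926, the highest value of the 6 arrays. The log2 changes were therefore 0.07 and 0.09 with the hairpins against CNOT3 and 0.56 with the control hairpin. The hairpin mean of 0.08 ± 0.02 (SD, n = 2) had an adjusted p of 0.912 in limma, and the difference from shNTC was -0.48 (adjusted p = 0.772). CDKN1A and CDKN1B, of the same family, thus differed in which line gave the largest DOX change.

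CDKN1C, the p57 inhibitor and an imprinted gene, was read by 5 dim probe sets that did not give 1 answer. Those with the suffix x_at can also bind other transcripts. The 3 that passed the filter read between 30.3 and 182 over all arrays. By 213348_at the level was 101 and 93.2 in the shNTC line, 80.5 and 75.8 in the shCNOT3-1 line and 125 and 30.3 in the shCNOT3-2 line, each without and then with DOX. By 219534_x_at it was 182 and 127 in the shNTC line, 160 and 45.7 in the shCNOT3-1 line and 78.2 and 62.9 in the shCNOT3-2 line. In the first the lower value belonged to shCNOT3-2 and in the other to shCNOT3-1, so no hairpin line was clearly lower by both. In each of them both knockdown arrays lay below all 4 others, although in 213348_at by 75.8 against 80.5. The third, 216894_x_at, was lower with DOX in every line, by -0.61 in shNTC, -0.54 in shCNOT3-1 and -0.70 in shCNOT3-2. The hairpin means were -1.05 ± 1.36, -1.05 ± 1.04 and -0.62 ± 0.11 (SD, n = 2) in the order 213348_at, 219534_x_at, 216894_x_at, with adjusted p-values of 0.440, 0.367 and 0.588 in limma. The remaining probe sets were too dim to test, and their changes ran from -0.84 to 0.88 over the 3 lines.

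CDKN2A and CDKN2B, which encode p16 and p15 next to each other on chromosome 9, are known to be deleted in A549, so their probe sets show what the array reads without their mRNA. Their 5 probe sets gave 30 reads with a median intensity of 12.4, from 1.16 to 189. The 4 probe sets below the filter stayed between 1.16 and 37.9. The exception was 209644_x_at of CDKN2A, of a type marked by its suffix as able to bind other transcripts, which read 109 and 51.5 in the shNTC line, 106 and 189 in the shCNOT3-1 line and 64.4 and 20.7 in the shCNOT3-2 line. Its changes pointed opposite ways in the hairpin lines (0.83 and -1.59, mean -0.38 ± 1.72, SD, n = 2), with an adjusted p of 0.852 in limma. The 15 DOX changes of these 5 probe sets ranged from -2.88 to 2.62 on the log2 scale, and 9 of them exceeded 2-fold. A change of more than 2-fold is thus found where no mRNA of the gene is known to be made. Above the filter this rests on 209644_x_at alone, at -1.06 in shNTC and -1.59 in shCNOT3-2. The rest of the changes over 2-fold came from probe sets below the filter, at 1.16 to 37.9. The read of 189 was also a single value, the next highest being 109. Of the other 11 tested probe sets, 5 were above 189 on every array: CDKN1A, CDKN1B, RB1 203132_at, RBL1 205296_at and RBL2 212331_at. The other 6 (CDKN1C, CDKN2D and the dimmer probe sets of RBL1 and RBL2) reached into this range on at least 1 array.

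Neighbouring genes of the same region were mostly in this low range too. CDKN2B-AS1, the antisense RNA of the locus, read 1.77 to 17.3, DMRTA1 5.81 to 16.9 and ELAVL2 2.33 to 70.4 over its 2 probe sets. MTAP, the methylthioadenosine phosphorylase gene beside CDKN2A, had 6 probe sets, of which 4 read 2.02 to 57.4. Another, 211364_at, read 74.4 to 101, and 211363_s_at read 437 to 694, with a log2 knockdown difference of 0.19. The MTAP probe sets therefore disagreed about whether the gene is expressed, and which is right was not tested. Whether 189 is the most that a probe set of this region reads without its mRNA is therefore not known.

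CDKN2D, the p19 inhibitor of CDK4 and CDK6, was lower on DOX with both CNOT3 hairpins and not with shNTC. Except in shCNOT3-2 without DOX, however, its levels were ones that a probe set of the deleted genes also reached. Its tested probe set 210240_s_at read 166 off DOX and 42.4 on DOX in the shCNOT3-1 line, then 248 and 138 in the shCNOT3-2 line. In shNTC it read 92.6 and 120. The groups overlapped, because shCNOT3-2 with DOX was above both shNTC arrays. With DOX, 25.6% of the level was left in shCNOT3-1 and 55.8% in shCNOT3-2. The hairpin mean was -1.39 ± 0.78 on the log2 scale (SD, n = 2), against 0.36 in shNTC. The limma fit gave an SE of 0.39 and an unadjusted p of 0.00603, with an adjusted p of 0.203. The difference from shNTC was -1.75 (SE 0.70), with an adjusted p of 0.615. Without DOX the 3 lines already spanned 2.68-fold, more than the mean hairpin change. The second CDKN2D probe set, 213586_at, read only 3.31 to 22.8 and gave opposite signs in the hairpin lines (-0.74 and 0.77).

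**Figure D1:**
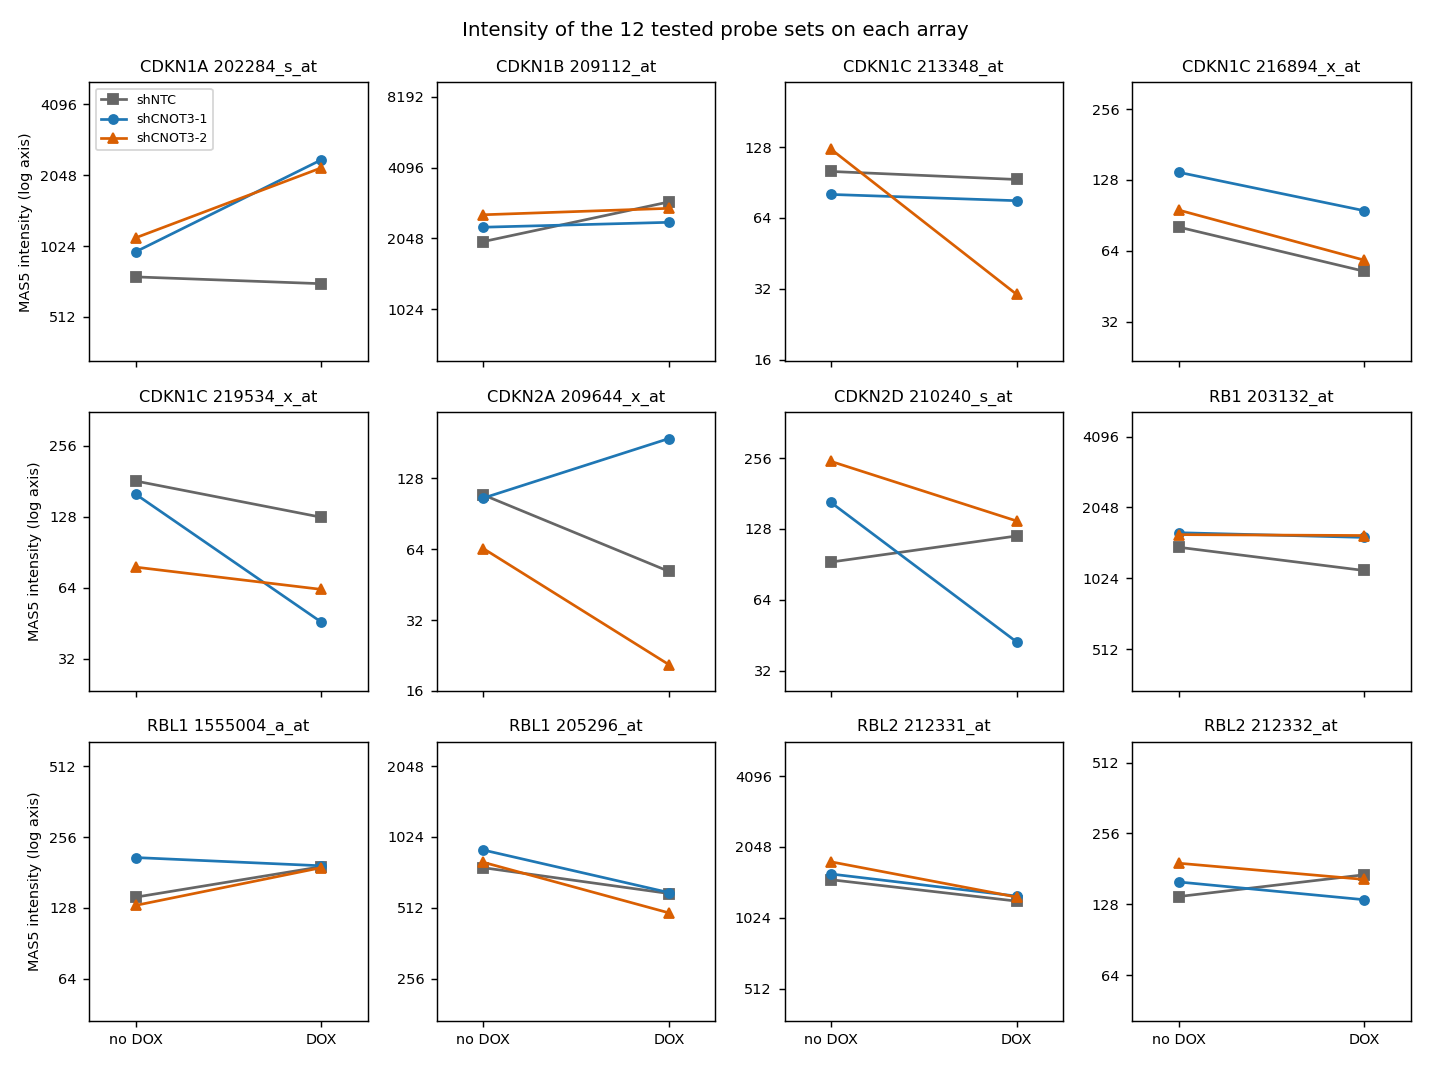
Intensity (MAS5, log axis, each panel covering the same fold) of the 12 tested probe sets without and with DOX, 1 line per stable line and 1 point per array. The CDKN1A lines of both shCNOT3 hairpins end at 2382 and 2202 while shNTC ends at 709, and the RB1 and CDKN1B lines of the hairpins are nearly flat.

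RB1, the retinoblastoma protein, was bright and nearly level with DOX in the hairpin lines. Its probe set 203132_at read 1599 off DOX and 1527 on DOX in the shCNOT3-1 line, then 1569 and 1556 in the shCNOT3-2 line. In shNTC it read 1387 and 1105, the lowest value of the 6 arrays. The hairpin mean was -0.04 ± 0.04 (SD, n = 2), with an SE of 0.20 and an adjusted p of 0.958 in limma, against -0.33 in shNTC. Its sign depends on the setting: it was 0.14 without the line as a block, and shCNOT3-2 alone turned to 0.0045 after quantile normalization. The other RB1 probe set, 211540_s_at, was too dim to test, at 12.7 to 89.6.

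RBL1, the p107 pocket protein, is itself an E2F target in the textbook view, and its main probe set was lower with DOX in every line. By 205296_at the level was 901 off DOX and 594 on DOX in the shCNOT3-1 line, then 799 and 487 in the shCNOT3-2 line. In shNTC it was 758 and 589, so the knockdown arrays and the shNTC array with DOX overlapped. The log2 changes were -0.60 and -0.71 in the hairpin lines and -0.36 in shNTC. The hairpin mean was -0.66 ± 0.08 (SD, n = 2), and limma gave an SE of 0.22 and an adjusted p of 0.263. The difference from shNTC was only -0.29 (adjusted p = 0.896). The dimmer 1555004_a_at did not share this direction: it read 142 and 192 in the shNTC line, 210 and 193 in the shCNOT3-1 line and 131 and 190 in the shCNOT3-2 line. Its hairpin changes were -0.12 and 0.53, with an adjusted p of 0.831 in limma. The remaining pair of RBL1 probe sets read 1.98 to 72.4 and were not tested. When the tested RBL1 probe sets were averaged, the gene's log2 difference was -0.22.

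RBL2, the p130 pocket protein that is prominent in resting cells, was also lower with DOX in every line by its bright probe set. By 212331_at the level was 1572 off DOX and 1267 on DOX in the shCNOT3-1 line, then 1771 and 1255 in the shCNOT3-2 line, and 1487 and 1206 in shNTC. The 3 arrays with DOX lay together between 1206 and 1267, and the 3 without lay between 1487 and 1771. The hairpin mean was -0.40 ± 0.13 (SD, n = 2), against -0.30 in shNTC, with an SE of 0.20 and an adjusted p of 0.429 in limma. The difference from shNTC was -0.10 (adjusted p = 0.963). The dimmer 212332_at was lower in both hairpin lines (-0.25 and -0.23) and higher in shNTC (0.31), with an adjusted p of 0.783 in limma. Its values were 138 and 171 in the shNTC line, 159 and 134 in the shCNOT3-1 line and 191 and 163 in the shCNOT3-2 line, so the groups overlapped.

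**Figure D2:**
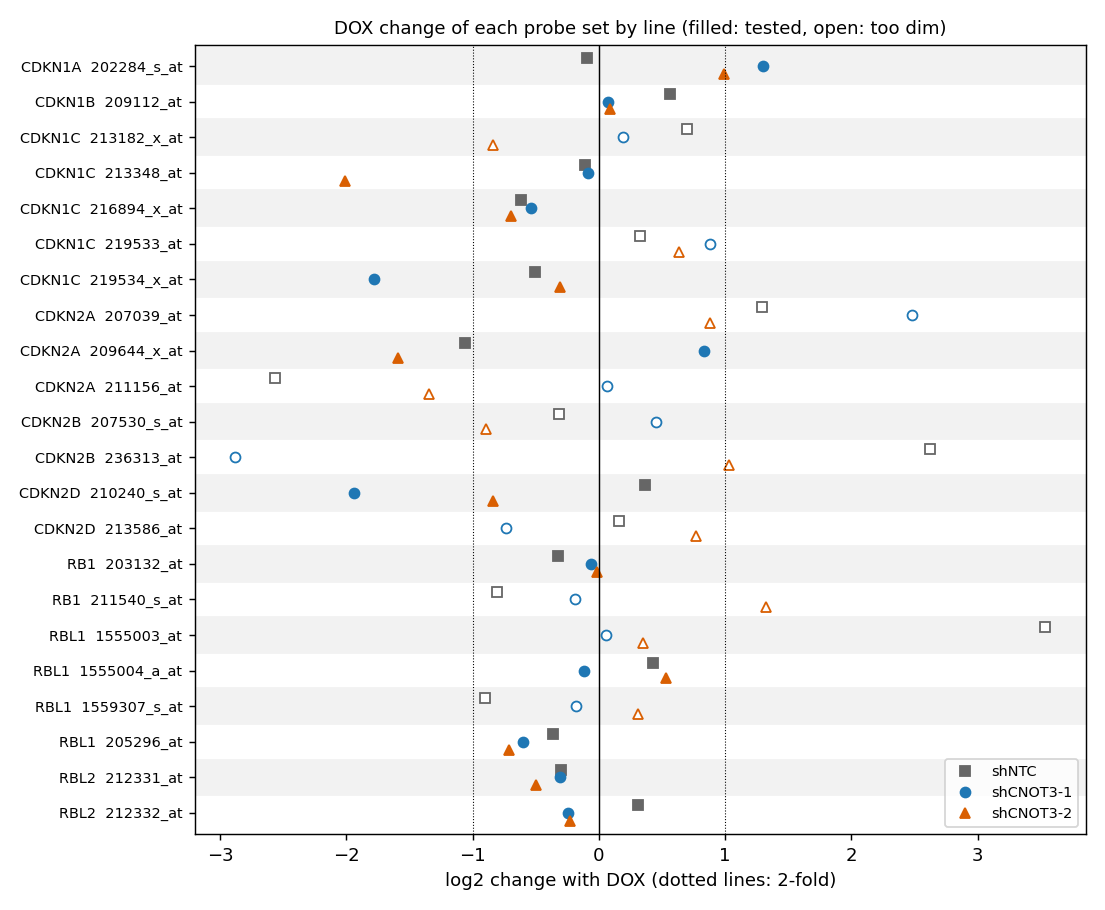
Change in log2(intensity + 1) with DOX in each line (squares shNTC, circles shCNOT3-1, triangles shCNOT3-2) for all 22 probe sets, filled where tested and open where too dim. The hairpin symbols of CDKN1A lie at 1.30 and 0.99 with shNTC at -0.10, and the dim CDKN2A and CDKN2B probe sets scatter from -2.88 to 2.62.

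No probe set of these genes passed the adjusted threshold for knockdown: 0 of 12, where limma called 36 of all 27279 (0.132%), 15 higher and 21 lower. At an unadjusted p under 0.05, 1 of the 12 was higher (CDKN1A), against 6.03% of all probe sets. At the same level 3 were lower (CDKN2D 210240_s_at, RBL1 205296_at and CDKN1C 219534_x_at), against 7.49%. Of these 3, CDKN1C was below the highest read of the deleted genes' probe sets on all arrays. CDKN2D was below it except in shCNOT3-2 without DOX, and RBL1 was lower in shNTC too. Without the shCNOT3-1 line 1 of the 12 was lower at that level (5.54% of all), and without shCNOT3-2 it was 2 (5.75%). Knockdown is then 1 array, assumed to vary like the rest. For the difference from shNTC no probe set on the array was called (0%) by limma, the smallest adjusted p being 0.0821. At an unadjusted p under 0.05 that test had 2097 probe sets (7.69%), of which 2 were of these genes, CDKN1A higher and CDKN2D lower.

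Size gave a similar count. A rule asking for at least 2-fold in both shCNOT3 lines, and for less than 0.5 of the smaller hairpin change on the same side in shNTC, took in 0.495% of probe sets as higher and 0.488% as lower, and 0 of the 12 in either direction. CDKN1A missed it by its 1.98-fold in shCNOT3-2. At 1.5-fold the rule took in CDKN1A as higher and CDKN2D as lower, with 2.16% of all probe sets higher and 2.71% lower. Both knockdown arrays lay above all 4 others for 1 of the 12 (CDKN1A), against 13.4% of probe sets, and below all others for 2 (CDKN1C 213348_at and 219534_x_at), against 13.6%. Counts of 1 and 2 in 12 are close to these background shares.

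The direction of the 12 was uneven. With both hairpins 2 were higher (CDKN1A and CDKN1B), 8 were lower and 2 pointed opposite ways (CDKN2A 209644_x_at and RBL1 1555004_a_at). Among all tested probe sets 29.5% were higher in both, 29.8% lower in both and 40.7% opposite. The median log2 change of the 12 was -0.21 in shNTC, -0.18 in shCNOT3-1 and -0.40 in shCNOT3-2, so shNTC was lower too. The 8 lower probe sets came from 5 genes, and CDKN1C alone gave 3 of them. With quantile normalization 7 were lower in both hairpins, RB1 being the one that left. In 8 of the 12 the range over the 3 lines without DOX was larger than the mean hairpin change. The 4 where it was smaller were CDKN1A, CDKN1C 213348_at, RBL1 205296_at and RBL2 212331_at. The share over all tested probe sets was not computed. Their median range without DOX was 0.337 on the log2 scale. Their median absolute DOX change was 0.311 in shCNOT3-1 and 0.315 in shCNOT3-2. These are changes of single lines, not the mean of both hairpins, so they give no share to set beside 8 of 12.

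The dimmer bands held more large changes in every line. Of the 12, 5 lay in the dimmest of 4 equal bands of tested probe sets (the 3 of CDKN1C, CDKN2A and CDKN2D, mean intensity 61.4 to 139), where 14.8% of all probe sets differed at least 2-fold in shNTC, 15.8% in shCNOT3-1 and 17.2% in shCNOT3-2. In the band that held CDKN1A and RBL1 205296_at (391 to 1267) the shares were 1.39%, 4.82% and 4.12%. In the brightest band, with CDKN1B, RB1 203132_at and RBL2 212331_at, they were 0.894%, 2.87% and 2.21%. The part of intensity in the values of these genes was not tested.

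**Figure D3:**
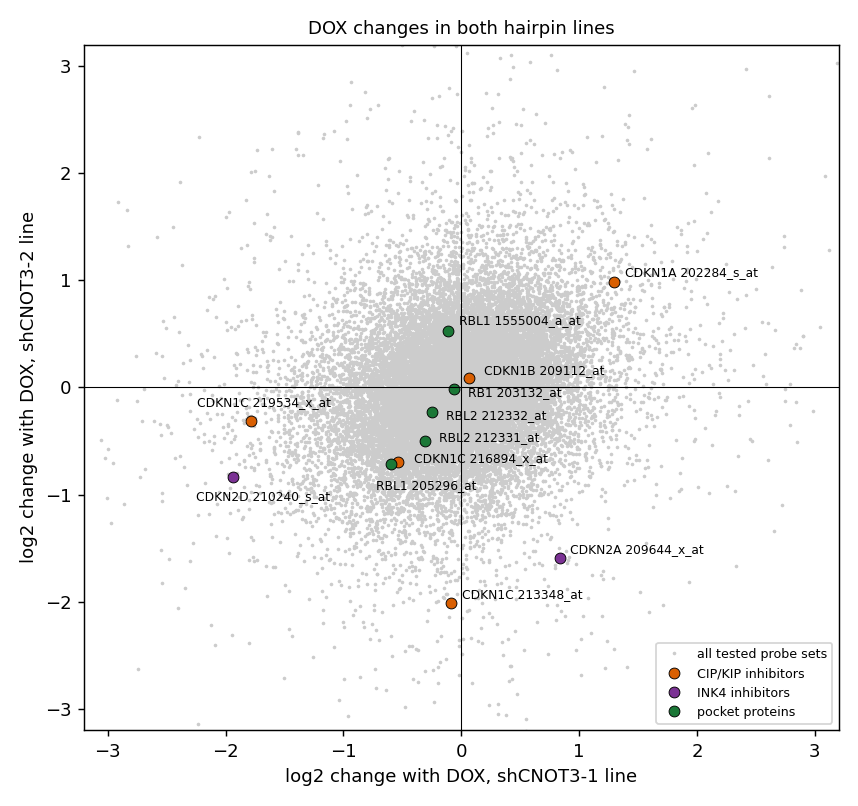
Change in log2(intensity + 1) with DOX in shCNOT3-1 (horizontal axis) against shCNOT3-2 (vertical axis) for all tested probe sets (grey) and the 12 of these genes (coloured by family); 36 probe sets lie outside the axes, which end at 3.2 in each direction. CDKN1A lies in the upper right at 1.30 and 0.99, and CDKN2A 209644_x_at lies at 0.83 and -1.59.

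The partners of these genes were a list of 50, each read by its brightest probe set. They were cyclins, kinases, E2F factors, DREAM subunits with MYBL2 and DYRK1A, genes listed for turnover of the inhibitors, and upstream regulators. Of these, 48 were measured and tested, and 2 upstream regulators were not analysed here. None passed the adjusted threshold. At an unadjusted p under 0.05, 2 of the 48 were higher and 11 lower, where the brightest probe sets of all 12630 genes gave 7.49% higher and 7.01% lower. With both hairpins 12 were higher, 22 lower and 14 opposite, where all genes gave 33.2%, 26.9% and 39.9%. The list's median knockdown difference was -0.15 on the log2 scale, and its medians by line were -0.06 in shNTC, -0.06 in shCNOT3-1 and -0.19 in shCNOT3-2. Of the 48 genes, 25 had other tested probe sets, and in 10 at least 1 of them gave the opposite sign, among them CCNA2, CDC25A, CDK6, CUL4A and MDM2.

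Both higher partners belong to the CDK-activating kinase, the complex of CDK7, CCNH and MNAT1 that phosphorylates other cyclin-dependent kinases. CDK7 read 2580 off DOX and 5623 on DOX in the shCNOT3-1 line, then 2612 and 5133 in the shCNOT3-2 line, and 2543 and 1960 in shNTC. Both knockdown arrays stood above all others, at a log2 hairpin mean of 1.05 ± 0.11 (SD, n = 2) and an adjusted p of 0.0838 in limma. CCNH gave 0.34 and 0.66 in the hairpin lines and -0.33 in shNTC (adjusted p = 0.289). MNAT1 gave 0.60, 0.21 and -0.41 in the same order (adjusted p = 0.471). Of the kinases that the inhibitors bind (CDK1, CDK2, CDK4 and CDK6), 2 had an unadjusted p under 0.05, both lower. All genes gave 7.01% lower at that level. CDK1 gave -0.39 and -0.63 (shNTC 0.11) and CDK4 gave -0.56 and -0.20 (shNTC 0.03). Neither passed after adjustment in limma (0.189 and 0.348). For CDK1 the groups overlapped, at 10361 and 8354 in the knockdown arrays and 9338 and 10068 in shNTC. Its log2 range over the lines without DOX was 0.54, larger than the hairpin mean of -0.51. CDK2 gave -0.16 and -0.50, with -0.20 in shNTC. CDK6, named after its values were seen, had opposite signs, at -0.55 in shCNOT3-1, 0.63 in shCNOT3-2 and 1.00 in shNTC.

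Among cyclins, 0 of 7 were higher with both hairpins and 4 were lower, where all genes gave 33.2% and 26.9%. CCNE2, a cyclin E, which activates CDK2 in the complex that p21 inhibits, had an unadjusted p under 0.05 and the others did not. It read 482 off DOX and 207 on DOX in the shCNOT3-1 line, then 505 and 268 in the shCNOT3-2 line, and 610 and 657 in shNTC. Both of its knockdown arrays lay below all others, at a hairpin mean of -1.06 ± 0.21 (SD, n = 2) and an adjusted p of 0.128 in limma. CCND1 gave -0.24 and -0.36 (shNTC 0.10), CCND2 -0.54 and -0.30 (shNTC 0.22), and CCNA2 -0.12 and -0.39 (shNTC -0.30). None had an unadjusted p under 0.05. CCND2 was dim, at 51.2 to 149 over the arrays, levels that a probe set of the deleted genes also reached. CCNA2 was lower in shNTC too, and its other tested probe set (203418_at) gave a log2 knockdown difference of 0.22. Of the E2F and DP factors, 3 of 10 had an unadjusted p under 0.05, all lower, where all genes gave 7.01% lower. These were E2F8, E2F2 and E2F3. E2F8, a repressor E2F, read 938 off DOX and 439 on DOX in the shCNOT3-1 line, then 840 and 406 in the shCNOT3-2 line, and 774 and 785 in shNTC, with a hairpin mean of -1.07 ± 0.03 (SD, n = 2) and an adjusted p of 0.0970. E2F3 gave -0.56 and -0.48, with -0.04 in shNTC, and E2F2 gave -0.39 and -0.72, with -0.31 in shNTC. E2F4 and E2F5, which pair with RBL1 and RBL2, and E2F6 were higher in both hairpin lines (0.23 and 0.27, 0.32 and 0.66, 0.24 and 0.06), and none passed; E2F5 was higher by 0.62 in shNTC too.

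The DREAM group held the core of the complex that RBL1 and RBL2 join (LIN9, LIN37, LIN52, LIN54 and RBBP4). MYBL2 and DYRK1A were listed beside it, not as subunits. Of these 7 genes, 2 had an unadjusted p under 0.05, both lower, where all genes gave 7.01% lower. RBBP4 gave -2.18 in shCNOT3-1 and -0.43 in shCNOT3-2, with -0.19 in shNTC and an adjusted p of 0.178 in limma. LIN54 gave -1.95 and -0.50, with 0.35 in shNTC and an adjusted p of 0.303 in limma. LIN54 was dim, at 40.5 to 160 over the arrays, levels that a probe set of the deleted genes also reached. In RBBP4 and LIN54 the shCNOT3-1 change was the larger, as it was for CDKN2D. LIN37 (0.04 and 0.59), DYRK1A (0.07 and 0.05) and MYBL2 (-0.36 and -0.39) did not reach that level. In shNTC these gave -0.37, 0.17 and 0.23.

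Of the 10 genes listed for turnover of the inhibitors, 2 had an unadjusted p under 0.05, both lower, where all genes gave 7.01% lower. They were CUL4A and DTL, parts of the ligase that marks the p21 protein for destruction on PCNA. CUL4A read 1930 off DOX and 728 on DOX in the shCNOT3-1 line, then 2218 and 1373 in the shCNOT3-2 line, and 1587 and 1517 in shNTC. Its hairpin mean was -1.05 ± 0.50 (SD, n = 2), with an adjusted p of 0.123 in limma, but another CUL4A probe set (227757_at) gave 1.19 and 0.90 in the hairpin lines and 0.39 in shNTC. DTL gave -0.91 and -0.44, with -0.01 in shNTC and an adjusted p of 0.193, and its other tested probe set (222680_s_at) gave -0.37 and 0.29. Their partners DDB1 (0.20 and 0.14) and PCNA (-0.06 and -0.28), and CUL1 (0.23 and 0.26), did not reach that level. In shNTC these gave 0.07, -0.17 and 0.12. Of the 4 upstream regulators tested, FOXO3, a factor that can drive CDKN1B, was lower: it gave -0.62 and -1.77, with 0.09 in shNTC and an adjusted p of 0.143. MDM2, the p53 ligase and a p53 target like CDKN1A, gave 0.03 and 0.13 in the hairpin lines and -1.10 in shNTC. Its other 5 tested probe sets did not share 1 direction: in shNTC 3 were lower and 2 higher, 217373_x_at by 1.54, and 244616_x_at gave -0.41 and -0.96 in the hairpin lines.

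**Figure D4:**
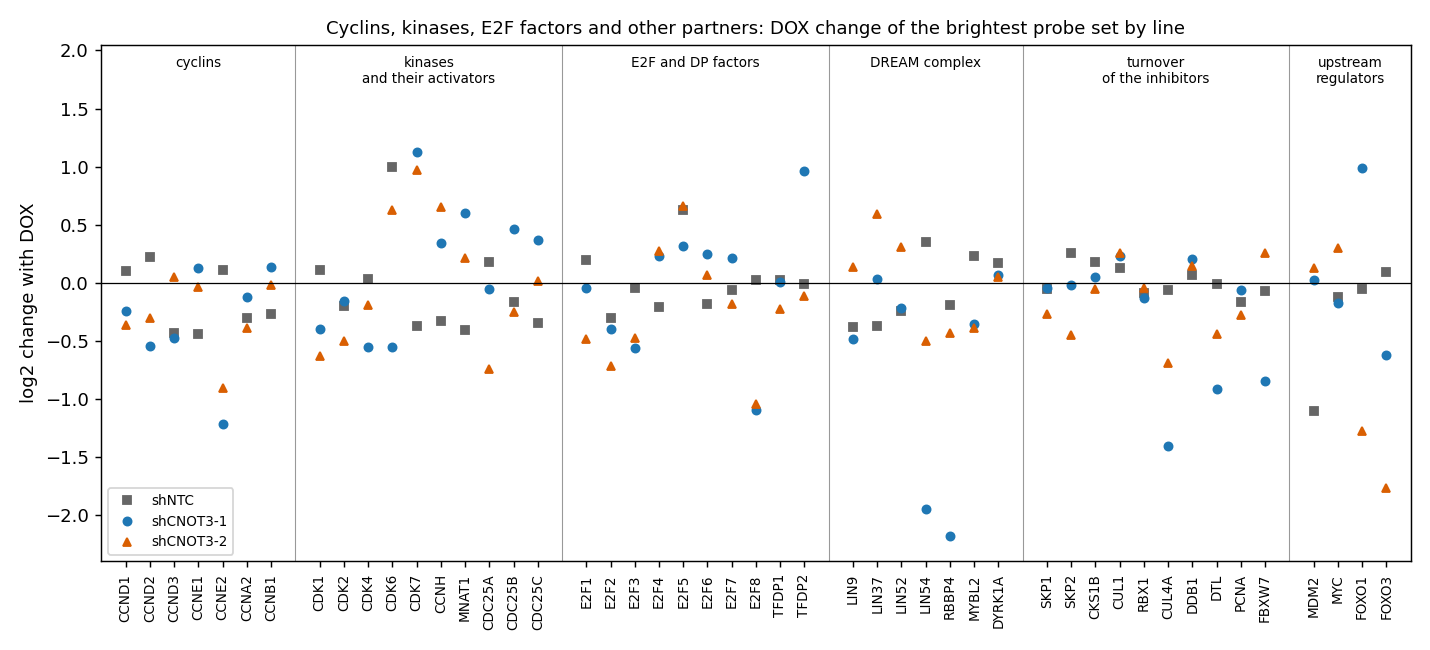
Change in log2(intensity + 1) with DOX in each line (squares shNTC, circles shCNOT3-1, triangles shCNOT3-2) for the brightest probe set of 48 partner genes, grouped by role. CDK7 lies at 1.12 and 0.97 with shNTC at -0.38, and CCNE2 and E2F8 lie near -1 in both hairpin lines with shNTC near 0.

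The genes whose log2 levels over the 6 arrays were most like CDKN1A were PIPOX (Pearson r = 0.996), RELL2 (0.994), AKAP8L (0.993), PHLDB3 (0.992) and CHAC1 (0.992), out of 12629 genes compared. CHAC1, which degrades glutathione, read 135 off DOX and 345 on DOX in the shCNOT3-1 line, then 161 and 364 in the shCNOT3-2 line, and 123 and 102 in shNTC. The most opposite were CMC2 (-0.996), TCF4 (-0.995), SLC23A1 (-0.994), ZNF678 (-0.994) and RARA-AS1 (-0.991). With 6 arrays that share 3 lines and 1 knockdown contrast, 401 genes (3.18%) had an r above 0.9 with CDKN1A, so these values are a description without a test.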

How the data were processed

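RNA from the 6 cultures was hybridised to Affymetrix arrays. The authors deposited MAS5 intensity values, linear and 1 per probe set; the tool is named in the submitters' processing notes and its settings were not given there. Symbols came from the platform annotation, updated to RefSeq through the Entrez identifier (41043 of 41097 probe sets with 1 gene; 1801 had several genes and 11777 were unlisted). Intensities were taken to log2 after adding 1. The 62 controls were left out, and a probe set was tested where its mean log2 reached the overall median (5.96, or 61.4 in intensity).

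Tests used limma 3.58.1 in R 4.3.3, 2-sided, with an intensity trend in the prior variance and Benjamini-Hochberg adjustment over 27279 probe sets at 0.05. The model had the line as a block, a pairing that comes from the labels, and a knockdown term. It left 2 residual degrees of freedom before the prior. It had no DOX term, so its knockdown difference is the mean DOX change of the hairpin lines. The shNTC change was not subtracted and entered the residual. A second model added DOX and tested the difference from shNTC with 1. The number of arrays limits the precision. The procedure was also run on simulated data, and the outcome is not given here. That run cannot show whether the p-values hold for these cultures, which have no repeats, and no conclusion is drawn from it. Members and lists were chosen with earlier results of these data known. All tested probe sets of the genes are named, and the dimmer ones are named or given as ranges. Partners are named by an unadjusted p under 0.05 or, up to 3 more per role, by the size of the smaller hairpin change. Alternatives covered scaling, added constant, filter, unit of the fit, prior and block, and leaving out each line. Figures were made with matplotlib 3.10.9 in Python 3.11.15.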

Additional observations from a re-analysis of the deposited data

Results flagged for a closer look

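In 3 probe sets the DOX changes of both shCNOT3 lines had one sign and that of shNTC the other. For CDKN1A 202284_s_at the mean change of the hairpin lines exceeded that of shNTC by 1.24 on the log2 scale, with an adjusted p of 0.474 in limma. For CDKN2D 210240_s_at the difference was -1.75, with an adjusted p of 0.615 in limma. Its intensities were 42.4 to 248, and a probe set of the deleted CDKN2A read up to 189. For RBL2 212332_at it was -0.54, with an adjusted p of 0.853, and the brighter RBL2 212331_at gave -0.10. None of these differences passed the test.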

How the results depend on the processing

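The number of probe sets called for knockdown depended on the setting. It was 36 as reported, 9 with each gene as the mean of its probe sets (12630 genes tested), 21 after quantile normalization, 0 without the filter on dim probe sets, 0 without the intensity trend and 220 with no replicate block. With 1 hairpin line left out it was 14 to 29. For the difference from shNTC the count was 0 as reported, 2 after quantile normalization and 83 after median centring (49 higher, 34 lower). The causes were not tested. None of these genes' probe sets was called for either comparison in any setting run except CDKN1A with no replicate block, where the log2 difference was 1.39 and the adjusted p 0.0179. Over the 12 alternatives CDKN1A kept its direction, at 0.99 to 1.39 with adjusted p-values of 0.0179 to 0.370.

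With no replicate block the sign turned for RB1 203132_at (0.14). Without shCNOT3-2, which leaves the value of shCNOT3-1 alone, it turned for RBL1 1555004_a_at (-0.12) and CDKN2A 209644_x_at (0.83); without shCNOT3-1 these gave 0.53 and -1.59. The number of these genes' probe sets lower at an unadjusted p under 0.05 was 3 as reported, 1 with each gene as the mean of its probe sets, and 1 to 2 with 1 hairpin line left out. At 1.5-fold the fold rule took in 1 higher and 1 lower in place of 0, and 590 higher and 738 lower of all probe sets in place of 135 and 133. The difference from shNTC and the fold rule could not be computed with a line left out, since both need all 3 lines.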
